A study of Mus musculus with 2 samples.

Results

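Desmosome and classical cadherin genes are described here in cells of the mouse hair follicle. The 10 genes are Cdh1 and Cdh3 (classical cadherins), Dsg2, Dsc2 and Dsc3 (desmosomal cadherins), Jup, Pkp1 and Pkp3 (armadillo proteins), Dsp (a plakin) and Perp (a tetraspan protein). They were chosen by name, with earlier results of these data known. Every probe set annotated to one of them alone was used, which gave 21 probe sets out of 34945 single-gene probe sets. Those 34945 probe sets stood for 18193 genes. All 10 genes were measured, meaning that the probe set standing for the gene reached a signal of 57.8, the 40th percentile of all signals, on at least 1 array. In all, 13252 genes were measured.

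Gene expression was profiled on Affymetrix arrays in 2 sorted populations of follicle cells from CD-1 pups at postnatal day 4 (back skin). The early bulge cells were bright for both reporters of the K14-RFP/Sox9-EGFP genotype, a red one driven by the basal keratin promoter K14 and a green one for Sox9, a transcription factor of follicle stem cells. The non-bulge outer root sheath (ORS) cells came from the same genotype, strain and age, were also gated as bright for the red reporter and were negative for the green one. Both populations are therefore defined by transgene brightness, and both sorts had excluded dead cells and large differentiated ones. The labels do not say how many pups stood behind a sort. There was 1 array per population, so the ratios cannot be set against a spread between replicates and carry no p-values. Both arrays also carried signal for markers of dermal fibroblasts, which lie outside a keratin gate, and its source was not tested. On the probe set standing for each gene, all 11 measured of 12 fibroblast markers were at least 2-fold lower in early bulge. The signals of the list summed to 4846 there and 55982 in ORS. In bulk RNA, fewer cells of a type and less RNA per cell cannot be told apart.

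A desmosome holds neighbouring epithelial cells together. Its cadherins, the desmogleins and desmocollins, bind across the gap between the cells. Inside the cell they bind plakoglobin (Jup) and the plakophilins (Pkp), which bind desmoplakin (Dsp), and desmoplakin anchors the keratin filaments. Adherens junctions are built from classical cadherins, which bind catenins and through them the actin cytoskeleton. E-cadherin (Cdh1) is the main classical cadherin of epidermal keratinocytes, and P-cadherin (Cdh3) is known from basal keratinocytes and the growing tips of follicles. Desmosomal genes are required for the mechanical strength of skin and for the anchorage of hair.

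Upstream windows from RefSeq (GRCm38.p6) were used for 2 of the 10 genes, Jup and Dsp. Windows of the other genes were not examined, whether or not RefSeq holds them. Jup and Dsp encode the links between the desmosomal cadherins and the keratin filaments. The 250 bases before each start are printed so that the compared genes can be seen with their upstream sequence. The Jup window is chr11:100397791-100398040 on the minus strand and the Dsp window chr13:38151044-38151293 on the plus strand. Capitals mark GGGCGG, the GC box bound by Sp factors, on either strand (CCGCCC on the printed strand).
Jup: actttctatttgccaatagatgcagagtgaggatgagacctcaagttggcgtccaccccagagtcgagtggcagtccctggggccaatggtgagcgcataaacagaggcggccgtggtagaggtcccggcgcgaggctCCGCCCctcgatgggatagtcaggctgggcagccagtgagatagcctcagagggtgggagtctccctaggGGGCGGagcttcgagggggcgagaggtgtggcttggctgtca
Dsp: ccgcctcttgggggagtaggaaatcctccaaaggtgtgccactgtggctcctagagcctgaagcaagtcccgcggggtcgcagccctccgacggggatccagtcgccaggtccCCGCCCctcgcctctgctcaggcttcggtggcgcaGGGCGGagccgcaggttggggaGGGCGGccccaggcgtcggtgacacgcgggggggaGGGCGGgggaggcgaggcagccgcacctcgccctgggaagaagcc
The first base of the GC boxes of Jup lay 112 and 42 bases before the start, and those of Dsp 137, 102, 80 and 45 bases before it. A GC box was present in 32.7% of 32851 upstream windows of this length. GC content was 62.0% in the Jup window and 72.4% in the Dsp window, and the median over all windows was 52.4%. Neither window held CAGGTG on either strand (CACCTG on the printed strand), the E-box of Snail and Zeb factors, which 17.2% of windows did. Neither held the general E-box CANNTG, which reads the same on both strands, contains CAGGTG and occurred in 66.2% of windows. The arrays do not measure binding at these letters.

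Cdh1, Jup, Pkp1 and Pkp3 had signals between 1.63-fold and 2.03-fold higher in early bulge cells, and the other 6 genes were at most 1.27-fold apart. Of the 10 genes, 1 was higher in early bulge by 2-fold or more, as were 7.3% of all measured genes, and none was lower by as much (4.78% of all measured genes). At 1.5-fold, 4 of the 10 were higher, against 17.1% of all measured genes, and none was lower, against 12.8%. Because the 10 genes were chosen with earlier results of these data known, the shares describe them and do not test them. After median centring of the arrays 3 of the 10 were higher by 1.5-fold, against 11.3% of all measured genes. The median log2 ratio, early bulge over ORS, was 0.32 over the 10 genes and 0.04 over all measured genes. The signal was higher on the early bulge array for 8 of the 10 genes and for 53.0% of all measured genes. After median centring it was higher for 6 of the 10, while the median log2 ratio of all measured genes was -0.17. Above the all-gene median lay 7 of the 10 genes after centring and 8 before it. No array was repeated, and the nearest measure of technical spread was the difference in log2 ratio between probe sets of one gene, whose root mean square was 0.51 over 15292 pairs. It holds no spread between animals or sorts. The log2 ratios of Cdh1, Pkp3, Jup and Pkp1 were larger than this, and those of the other 6 genes were smaller. After median centring that of Pkp1, at 0.49, was smaller than 0.51 too. The spread of a single probe set, taken from the same pairs, was 0.36, and the uncentred ratios split at 0.36 in the same way. After median centring Pkp1 still lay above 0.36, and Dsc2, at -0.47, lay farther from 0 than that as well.

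**Figure D1:**
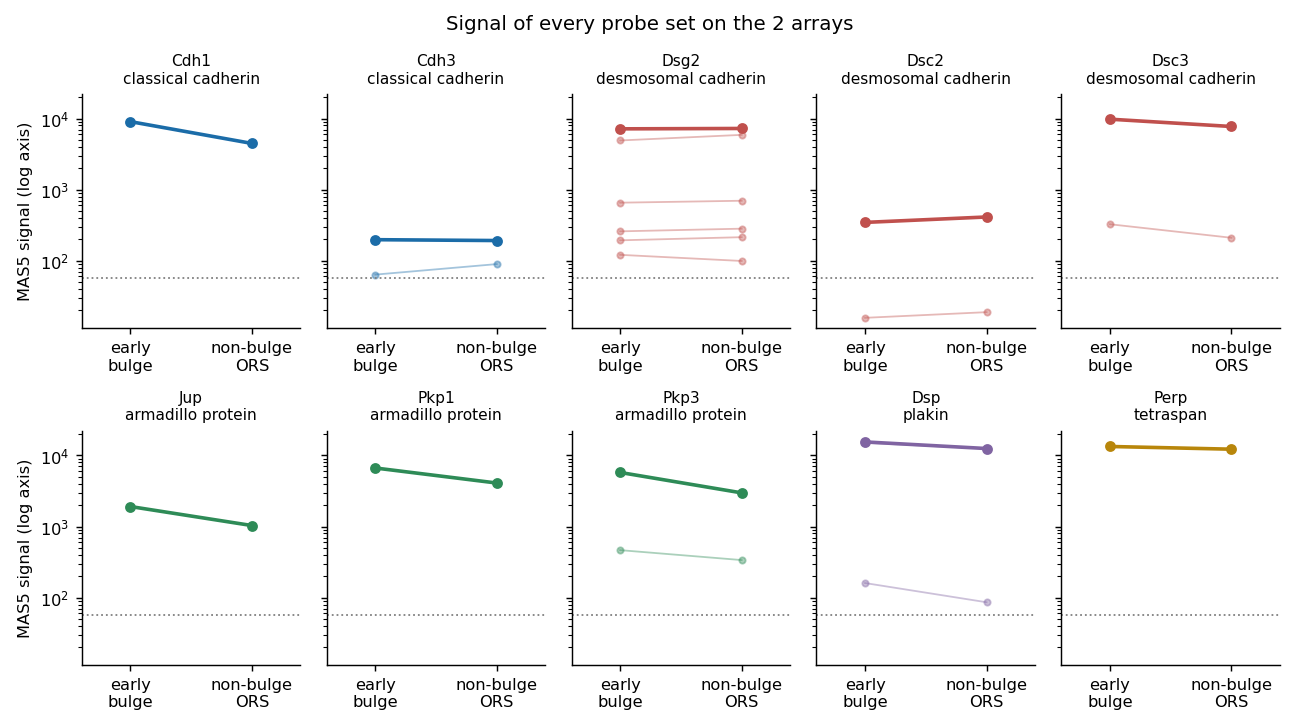
MAS5 signal (log axis) of all 21 probe sets on the early bulge and non-bulge ORS arrays, 1 panel per gene and 1 line per probe set. The thick line is the probe set that stands for the gene and the dotted line is the floor at 57.8; the lines of Cdh1, Jup, Pkp1 and Pkp3 are visibly higher on the early bulge side, and those of Dsg2, Perp and Cdh3 are nearly level.

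The classical cadherins differed from each other. Cdh1 had a signal of 9044 in early bulge and 4465 in ORS, a ratio of 2.03. This is the only ratio of the 10 genes that reached 2-fold, it rests on a single probe set, it was short of 2-fold after median centring of the arrays (log2 ratio 0.80), and 7.08% of all measured genes had a higher one. Cdh3 had a signal of 197.6 in early bulge and 192.2 in ORS. Its log2 ratio of 0.04 is near that of the median measured gene. A further probe set of Cdh3 gave 63.8 in early bulge and 89.6 in ORS, a log2 ratio of -0.49. Both probe sets of Cdh3 lay no more than 3.42 times above the floor, where MAS5 values are noisy, and they differed in direction. Cdh1 and Cdh3 are adjacent genes on chromosome 8, with 0 protein-coding genes between them in RefSeq.

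Among the desmosomal cadherins no gene reached 1.5-fold, and the direction was not shared. Dsg2, the desmoglein found in most epithelia and in stem cell compartments, had signals of 7157 in early bulge and 7244 in ORS, a log2 ratio of -0.02. It had 6 probe sets, all above the floor on both arrays, with log2 ratios between -0.26 and 0.29. The 2 ends of that range were a probe set with 4911 in early bulge and 5890 in ORS, and one with 121.0 in early bulge and 99.2 in ORS. The probe sets of Dsg2 thus stood on both sides of equal signal, 5 of them slightly lower in early bulge.

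Dsc3, the desmocollin of basal keratinocytes, had signals of 9782 in early bulge and 7722 in ORS, 1.27-fold higher in early bulge. A second probe set of Dsc3 gave 325.8 in early bulge and 210.2 in ORS, a log2 ratio of 0.63, so that both had the higher signal in early bulge. Dsc2, the widely expressed desmocollin, had signals of 345.8 in early bulge and 412.2 in ORS, a log2 ratio of -0.25. Its other probe set was below the floor on both arrays (15.7 in early bulge and 18.9 in ORS) and gave no ratio. Dsc2 thus had the lowest ratio of the 10 genes, and 72.0% of all measured genes had a higher one. Dsc2 and Dsc3 are neighbours in RefSeq, in the cluster on chromosome 18 that also holds Dsg2 with 6 other desmosomal cadherin genes, and their ratios had opposite signs.

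Jup, Pkp1 and Pkp3 were between 1.63-fold and 1.94-fold higher in early bulge cells. Pkp2, a further desmosomal plakophilin outside the 10 genes and named after its value was seen, had signals of 277.7 in early bulge and 370.5 in ORS, a log2 ratio of -0.42, and its other probe set gave -0.01. Pkp3, the plakophilin found in all living layers of stratified epithelium, had signals of 5766 in early bulge and 2979 in ORS, 1.94-fold higher in early bulge. A dimmer probe set of Pkp3 gave 465.8 in early bulge and 337.8 in ORS, a log2 ratio of 0.46 in place of 0.95. Both probe sets of Pkp3 had the same direction, the second below 1.5-fold.

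Jup, whose product plakoglobin is shared by desmosomes and adherens junctions, had signals of 1913 in early bulge and 1034 in ORS, 1.85-fold higher in early bulge. Pkp1, the plakophilin whose loss causes skin fragility in humans, had signals of 6666 in early bulge and 4096 in ORS, 1.63-fold higher in early bulge. Jup and Pkp1 had 1 probe set each, and that of Jup carries the suffix Affymetrix gives to probe sets that can match several transcripts. Of all measured genes, 7.87% had a higher ratio than Pkp3, 8.95% than Jup and 13.4% than Pkp1.

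Desmoplakin, the plakin that anchors keratin filaments, and Perp, a tetraspan membrane protein of desmosomes and a target of p63, differed little. Dsp had signals of 15503 in early bulge and 12517 in ORS, 1.24-fold higher in early bulge. A second probe set of Dsp gave 15030 in early bulge and 12515 in ORS, a log2 ratio of 0.26 beside 0.31 for the first. The third Dsp probe set, with 160.5 in early bulge and 86.2 in ORS, gave a log2 ratio of 0.90. It lies much nearer to the floor than the others, and all 3 had the higher signal in early bulge. Perp had signals of 13376 in early bulge and 12252 in ORS, a log2 ratio of 0.13 on its single probe set.

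**Figure D2:**
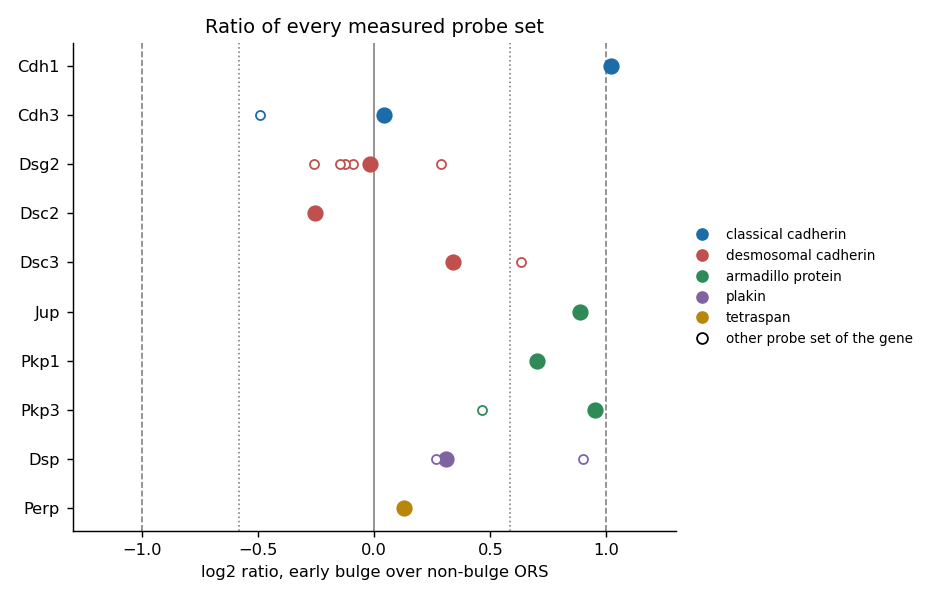
Log2 ratio, early bulge over non-bulge ORS, of the 20 measured probe sets of the 10 genes, coloured by the role of the protein. Filled points stand for the gene, open points are its other probe sets, dotted lines mark 1.5-fold and dashed lines 2-fold; only Cdh1 is past a dashed line, and Jup, Pkp1 and Pkp3 lie between the dotted and the dashed line.

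Of the 20 measured probe sets, 13 had the higher signal in early bulge and 7 the higher signal in ORS. Counted by gene, the early bulge signal was higher for 53.0% of all measured genes. The 7 probe sets higher in ORS belonged to Dsg2 (5), Dsc2 (1) and Cdh3 (1), and Dsg2 alone had 6 of the 20. The only probe set at least 2-fold apart was that of Cdh1, against 11.2% of all measured single-gene probe sets at least 2-fold apart in either direction.

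**Figure D3:**
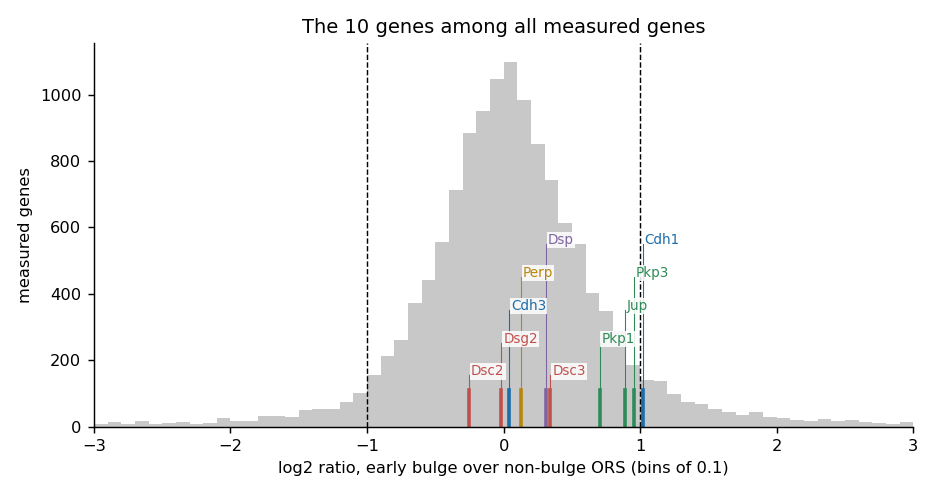
Number of measured genes per bin of 0.1 in log2 ratio, early bulge over non-bulge ORS, drawn between -3 and 3, with the 10 genes marked as coloured lines. Dashed lines mark 2-fold; the 10 genes spread from Dsc2 at -0.25 to Cdh1 at 1.02, inside the bulk of the distribution or on its upper shoulder.

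Other genes of the same junctions were taken from lists. Of 8 other desmosome genes, 5 were measured, with a median log2 ratio of 0.52, which is the ratio of Dsg1b. This median was 0.32 under quantile and under loess scaling, and 0.19 over 4 genes with the floor at the 60th percentile. Of the 5, 1 was higher in early bulge by 2-fold or more, against 7.3% of all measured genes. That gene was Cdsn, corneodesmosin of the cornified layer, with signals of 352.8 in early bulge and 90.1 in ORS. Dsc1, a desmocollin of differentiating keratinocytes, was 1.74-fold higher in early bulge, and its second probe set had a log2 ratio of 0.15. Dsg1a had a log2 ratio of -0.81 and Dsg1b one of 0.52, and these near-identical desmogleins can share probes, so their ratios are uncertain. Dsg1c, Dsg3 and Dsg4 had no single-gene probe set and were not analysed here.

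The partners of Cdh1 in adherens junctions went both ways. Of 14 catenin and adherens junction genes 13 were measured, with a median log2 ratio of 0.19. At 2-fold, 1 was higher and 1 lower in early bulge, against 7.3% and 4.78% of all measured genes. Nectin1 was 2.43-fold higher in early bulge, although another probe set gave a log2 ratio of 0.08. Nectin3, a nectin that can bind Nectin1 across cells, was 2.15-fold lower in early bulge, with signals of 302.7 there and 651.3 in ORS. With a pseudocount in place of the floor neither nectin was 2-fold apart, and with the floor at the 60th percentile or with the mean over probe sets only Nectin3 of the pair was. The actin-binding protein Lima1 was 1.87-fold higher, with probe sets down to a log2 ratio of 0.04. Pkp4, an armadillo relative of the plakophilins, was 1.82-fold lower, and its other probe set gave a log2 ratio of -0.37. The catenins that bind Cdh1 directly or through each other, here named after their values were seen, had log2 ratios of 0.13 (Ctnnb1), 0.18 (Ctnna1) and 0.22 (Ctnnd1), each smaller than that of Cdh1.

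Of 6 measured plakin cytolinkers, 2 were higher in early bulge by 2-fold or more, against 7.3% of all measured genes, and their median log2 ratio was 0.84. All 6 had the higher signal in early bulge, as had 53.0% of all measured genes, but Macf1, named after its value was seen, had a log2 ratio of only 0.07, which was -0.15 after median centring and -0.02 with the mean over probe sets. Eppk1, epiplakin, had signals of 5955 in early bulge and 1126 in ORS, 5.29-fold higher in early bulge. Dst, which links keratin to hemidesmosomes, was 2.52-fold higher, with its probe sets between log2 ratios of 0.68 and 1.53. Plec, plectin, was 1.80-fold higher, with probe sets up to a log2 ratio of 1.26, and Ppl, periplakin, was 1.78-fold higher. The related Dsp at 1.24-fold had a smaller ratio than Eppk1, Dst, Plec and Ppl and a larger one than Macf1.

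Of 16 other classical cadherins, 7 were measured, with a median log2 ratio of -0.54. Of the 7, 2 were lower in early bulge by 2-fold or more (4.78% of all measured genes) and none higher by as much (7.3%). That count depended on the floor and on the scaling. At least 2-fold apart were 1 of 7 with a pseudocount and 1 of 2 with the floor at the 60th percentile. It was 4 of 13 with the floor at the 20th and 7 of 14 with no floor. Median centring, quantile and loess scaling each gave 3 of 7, where Cdh9 passed 2-fold. Cdh11, a cadherin of mesenchymal cells, had signals of 98.1 in early bulge and 676.3 in ORS, 6.90-fold lower in early bulge. Cdh4, with 62.7 in early bulge and 135.1 in ORS, was 2.16-fold lower on signals near the floor, short of 2-fold with a pseudocount and below the 60th-percentile floor on both arrays. Cdh9 was at least 1.88-fold lower and Cdh10 at least 1.73-fold higher, each with 1 array below the floor. Cdh2, N-cadherin, and Cdh5, the endothelial cadherin, were among 7 that stayed below the floor on both arrays. Cdh12 and Cdh24 had no single-gene probe set.

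The median log2 ratio of 6 repressors known to act on the Cdh1 gene was -1.80. Of the 6, 4 were lower in early bulge by 2-fold or more, against 4.78% of all measured genes. With the floor at the 60th percentile, a signal of 171.8, this held for 1 of 5, against 4.23% of all measured genes. Twist2 was 4.28-fold lower, with signals of 113.5 in early bulge and 485.3 in ORS. Zeb2 was at least 4.28-fold, Zeb1 at least 4.05-fold and Twist1 at least 2.99-fold lower, all 3 below the floor in early bulge. Other probe sets gave log2 ratios of only -0.26 for Zeb2 and -0.19 for Zeb1. Snai2, which keratinocytes express, had a log2 ratio of 0.26, and Snai1 one of 0.93 on dim signals; both were chosen here after their values were seen. Of 10 epithelial transcription factors, 1 was at least 2-fold higher in early bulge (7.3% of all measured genes) and none as much lower (4.78%). Their median was 0.28. Elf3 was 2.00-fold higher, but short of 2-fold under median centring, quantile and loess scaling, with a pseudocount and with the floor at the 60th percentile. Klf4 was 1.82-fold higher, and another probe set gave a log2 ratio of 1.99. With the mean over probe sets Klf4 lay at 1.43, past 2-fold. Grhl2 had a log2 ratio of 0.58, with probe sets between 0.11 and 0.73. Ovol1 had one of -0.66, and its other probe set gave -0.32. Trp63, the p63 gene, named after its value was seen, had a log2 ratio of 0.40.

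**Figure D4:**
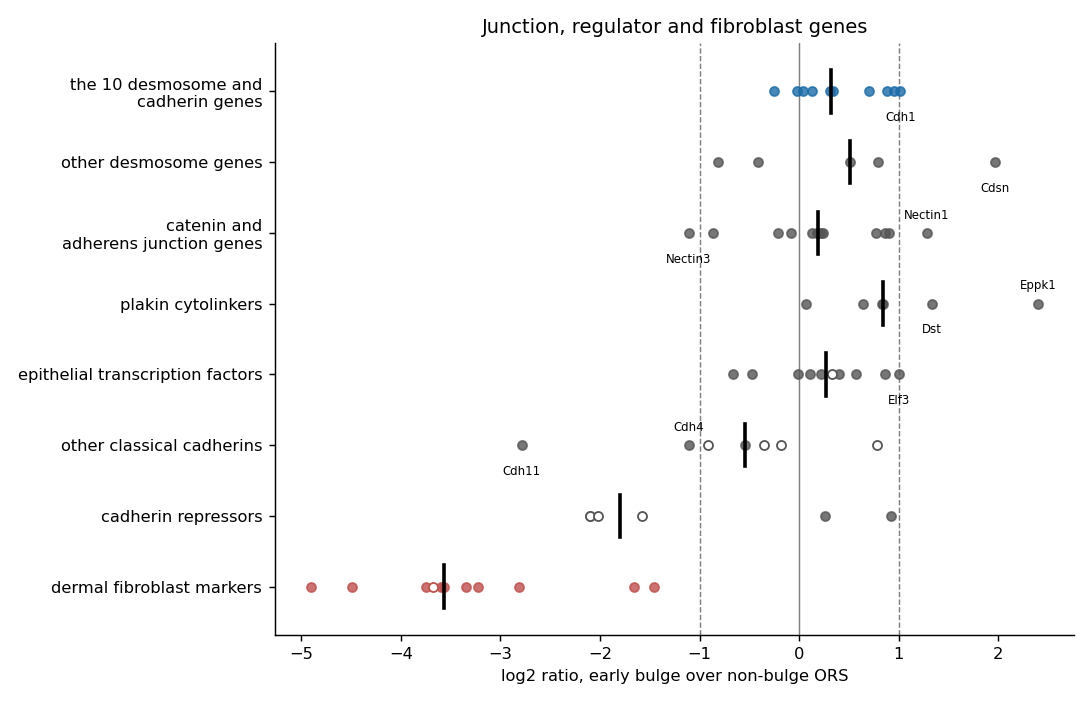
Log2 ratio, early bulge over non-bulge ORS, of the measured genes in each list, 1 point per gene, with a black bar at the median and dashed lines at 2-fold. Open points are bounds, with 1 array below the floor; the median of the 10 genes (0.32) lies beside those of the catenin list (0.19) and the epithelial transcription factors (0.28), and the repressors split into a pair above 0 and 4 genes at or below -1.58.

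Markers of other cells also differed between the arrays. Of all measured genes, 7.3% were at least 2-fold higher and 4.78% at least 2-fold lower in early bulge. Of the 11 measured fibroblast markers given above, none was at the floor in ORS, and Pdgfra was below it in early bulge. Other probe sets gave log2 ratios of only -0.08 for Pdgfra and -0.21 for Dcn. Col3a1 had signals of 1378 in early bulge and 16726 in ORS. Of the repressors, Zeb1, Zeb2, Twist1 and Twist2 were lower in early bulge, as was Cdh11, and Snai1 and Snai2 were higher. The part of fibroblasts in these ratios was not tested. The 8 hair matrix markers summed to 4485 in early bulge and 15321 in ORS, with 6 at least 2-fold lower in early bulge. Some other probe sets of these 6 fell short of 2-fold, with a log2 ratio of only -0.23 for one of Cux1. The 12 epidermal differentiation genes summed to 24909 in early bulge and 5928 in ORS, with 6 at least 2-fold higher in early bulge and Flg below the floor on both arrays. The 10 melanocyte markers, of a cell type that also carries Cdh1, summed to 3389 in early bulge and 4212 in ORS, 1 of them at least 2-fold higher and 2 at least 2-fold lower in early bulge. Of 8 endothelial markers 3 were measured, all lower in early bulge, and 1 of them by 2-fold or more. This was Tek, with 70.0 in early bulge and 285.9 in ORS, 4.09-fold lower, while Cldn5 was 1.54-fold and Kdr at least 1.32-fold lower. Pecam1, Cdh5, Tie1, Emcn and Vwf were below the floor on both arrays, and the 8 summed to 203.3 in early bulge and 552.2 in ORS. Of 8 immune markers 4 were measured, none of them 2-fold apart. Cd74 was 1.68-fold and Cd68, named after its value was seen, at least 1.64-fold higher in early bulge. Lyz2 was 1.77-fold lower, and Csf1r had a log2 ratio of 0.17. Ptprc, Cd3e, Cd207 and Itgam were below the floor on both arrays, and the 8 summed to 576.4 in early bulge and 437.8 in ORS. The part of any of these cells in the ratios of the 10 genes was not tested.

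The genes of the sort were in place. Sox9 had signals of 4061 in early bulge and 676.1 in ORS, and its weakest probe set gave a log2 ratio of 0.30. The basal keratins Krt5 (log2 ratio 0.61) and Krt14 (1.15) were bright on both arrays and higher in early bulge. For Krt14 this was the lowest of 3 probe sets, which reached a log2 ratio of 2.43. The ratios of Jup, Pkp1, Pkp3 and Cdh1 lay between those of Krt5 and Krt14, and those of the other 6 genes lay below that of Krt5.

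The ratios were recomputed under other settings. Over 10 ways of processing, the log2 ratio of Cdh1 ran from 0.80 to 1.05 and that of Pkp3 from 0.71 to 0.99. Those of Pkp1 and Jup ran from 0.49 to 0.74 and, over 9 ways, from 0.67 to 0.93. Dsc3 and Dsp stayed above 0, with lows of 0.12 and 0.09, and Dsc2 stayed below 0, between -0.47 and -0.22. The signs of Cdh3, Dsg2 and Perp were not the same under every setting.

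**Figure D5:**
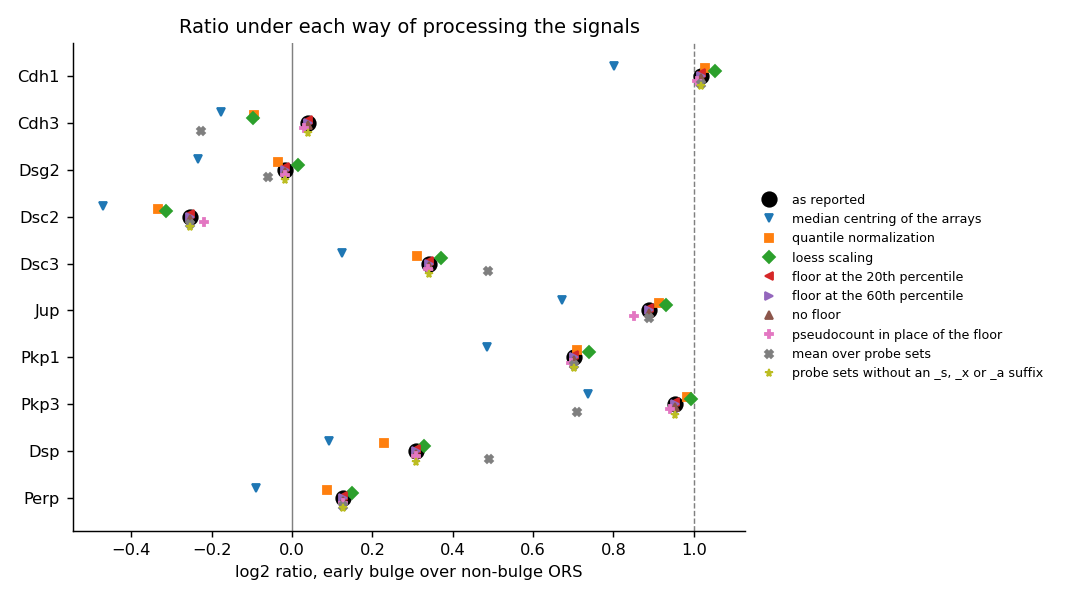
Log2 ratio, early bulge over non-bulge ORS, of each of the 10 genes as reported (black) and under 9 other ways of processing the signals, 1 symbol per setting; the dashed line marks 2-fold. Median centring moves every gene to the left, and Cdh1 then lies at 0.80, short of 2-fold.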

How the data were processed

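RNA of 2 sorted populations, early bulge and non-bulge ORS, was measured on 1 Affymetrix array each, with nothing stated as pooled. The authors deposited 1 MAS5 signal intensity per probe set on a linear scale; the submitters' processing notes name MAS5 and Affymetrix Expression Console, without versions. The 2% trimmed mean was 500.0 on both arrays, which shows a common scaling target. Because MAS5 corrects with mismatch probes, its low values are noisy. No genome build is named in the sources used here. The 64 control probe sets were left out, also of the percentile that sets the floor.

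Gene names came from the platform annotation. The RefSeq table held the Entrez ID of 34741 of 34945 single-gene probe sets and no symbol needed updating. The 932 probe sets with several genes were not used. A gene with several probe sets is represented by the one whose log2 signal, averaged over both arrays, is highest. Signals below the 40th percentile (57.8) were set to it, and a ratio with 1 array there is a lower bound, written as at least N-fold. Genes were counted at 2-fold and 1.5-fold, with no test, since each group had 1 array. Promoter windows came from RefSeq (GRCm38.p6). All 10 genes were named, as were, of each junction and regulator list, the genes at least 2-fold apart filled up to 4 by size. Of each marker list up to 3 of the genes with the highest signal could be named. Genes outside this rule are marked, apart from markers named as below the floor. The members and lists were chosen with earlier results of these data known. Alternatives were median centring, quantile and loess scaling (span 0.4), no floor, a floor at the 20th percentile or at the 60th, a pseudocount equal to the floor, the mean over probe sets, leaving out probe sets with the suffix _s, _x or _a, 1.5-fold, and a count of probe sets. Precision is limited by the number of arrays. The procedure was tested on simulated arrays. Python 3.11.15, numpy 2.4.6, pandas 2.3.3, statsmodels 0.14.6 and matplotlib 3.10.9 were used.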

Additional observations from a re-analysis of the deposited data

How the results depend on the processing

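The count of genes at least 2-fold apart, 1 of 10, was 0 after median centring of the arrays, where Cdh1 lay at 0.80, and 4 at 1.5-fold. It was 1 under the other 9 alternatives. Median centring moved the median log2 ratio of all measured genes to -0.17, from 0.04, and 7 of the 10 genes then lay above that median, in place of 8. It also moved the split of all measured genes at 2-fold to 5.35% higher and 7.7% lower in early bulge, in place of 7.3% and 4.78%. Every ratio of the 10 genes moved by less than 0.36, the spread of a single probe set on the log2 scale. The Jup ratio could not be had without suffixed probe sets. Among the lists, the median of the other classical cadherins was -1.17 over 2 genes when the floor was the 60th percentile, and that of the repressors was -0.45 over 5 genes there and -1.20 with the mean over probe sets. The other list medians moved by less than that spread. No paired analysis was possible because each group has 1 array, and leaving out an array leaves no comparison. Cdh3 and Dsc2, at 3.42 and 5.98 times the floor in early bulge, are limited most by signal over background.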
